A study of Mus musculus with 2 samples.

Results

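The 10 genes described here encode receptors, coreceptors and adaptors through which cells sense microbial and damage-associated molecules: the Toll-like receptors Tlr1, Tlr2, Tlr3, Tlr4 and Tlr7, the interleukin-1 receptor Il1r1, the coreceptors Cd14 and Ly96, the adaptor Myd88 and the pseudokinase Irak3. They were chosen by gene symbol, and every probe set that the array annotation assigned to them was read, 18 probe sets for 10 of 18193 named genes. Whole kidney RNA was hybridised to Affymetrix mouse arrays, 1 array for each of 2 genotypes. The cystic kidney came from mice homozygous for the inv mutation of Invs (inv/inv) that also carried the inv-deltaC::GFP transgene, which encodes inversin without its C-terminus and joined to green fluorescent protein. The control kidney came from mice with normal Invs alleles (+/+) and the same transgene. The transgene's product was not measured here. The age was 4 weeks, and 28 days on the label of the cystic sample. The mutant is a mouse model of nephronophthisis type 2, a cystic kidney disease. Neither the number of animals behind each array nor the promoter that drives the transgene was stated in the labels.

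Toll-like receptors recognise conserved molecules of microbes and molecules released by damaged tissue. The receptors for lipopeptides and lipopolysaccharide lie at the cell surface, and those for RNA in endosomes. Most of them, and the interleukin-1 receptor, share a cytoplasmic TIR domain that recruits the adaptor MyD88 and kinases of the IRAK family and leads to activation of NF-kB, while Tlr3 uses the adaptor TRIF, encoded by Ticam1. In kidney these genes are known from resident and infiltrating macrophages and, for several of them, also from tubular epithelium.

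Because each genotype had 1 array, no difference could be tested, no p-value is given, and the number of arrays limits the precision of every value. The measure was the linear MAS5 signal of a probe set, which does not allow levels of different genes to be compared. A floor was set at each array's median signal, 61.9 for the cystic array and 55.4 for the control array. A gene under both floors was treated as not measured. Where only the control signal was under its floor, it was raised to the floor, and the fold difference is a lower bound, written as at least N-fold. A gene was counted as higher or lower past a fixed 2-fold difference, and ratios are cystic over control. The pooled SD of log2 ratios between measured probe sets of the same gene was 0.32 over 5428 genes. It is a spread between probe sets within the same RNA, not between animals, and bounds against a floor entered it. The 2% trimmed mean was 181 for the cystic array, against 178 for the control array. The 3'/5' signal ratios of the control transcripts were 0.780 (Gapdh) and 1.17 (Actb) on the cystic array, against 0.779 (Gapdh) and 1.23 (Actb) on the control array. The brightest Invs probe set read 15.9 in the cystic and 118 in the control kidney, and the part of the transcript it binds was not examined, so it does not check the genotype. The cystic array went against its label for sex: that label is female, but the brightest Xist probe set read 57.4 on the cystic array, under the floor, and 387 on the control array. The Y-linked genes Eif2s3y, Kdm5d and Uty read 142, 194 and 198 on the cystic array, and 132, 152 and 206 on the control array. No sex was given for the control, whose array held both kinds of transcript. The 2 arrays thus differed in Xist signal as well as in genotype. A part of sex in any ratio, including that of X-linked genes, was not tested and cannot be told apart from genotype. Kdm5d and Uty were chosen after their values were seen. As a check of the tissue, Umod, Slc34a1 and Slc12a1, which mark the loop of Henle and the proximal tubule, had signals of 8160, 5093 and 4787 in the cystic and 8713, 8397 and 5991 in the control kidney.

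Of these genes, 3 passed 2-fold upward in the cystic kidney, namely Cd14, Tlr2 and Il1r1. Cd14, the coreceptor for lipopolysaccharide, was 7.85-fold higher, Tlr2, the lipopeptide receptor, at least 3.24-fold and Il1r1 at least 2.29-fold. Tlr3 and Myd88 were measured on both arrays and were under 2-fold, with log2 ratios of 0.57 and 0.72. Tlr4 and Tlr7 had lower bounds of 0.78 and 0.31 in log2, which do not show whether they passed 2-fold. Tlr1, Ly96 and Irak3 were under the floor on both arrays. None of the 10 was counted as lower.

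**Figure D1:**
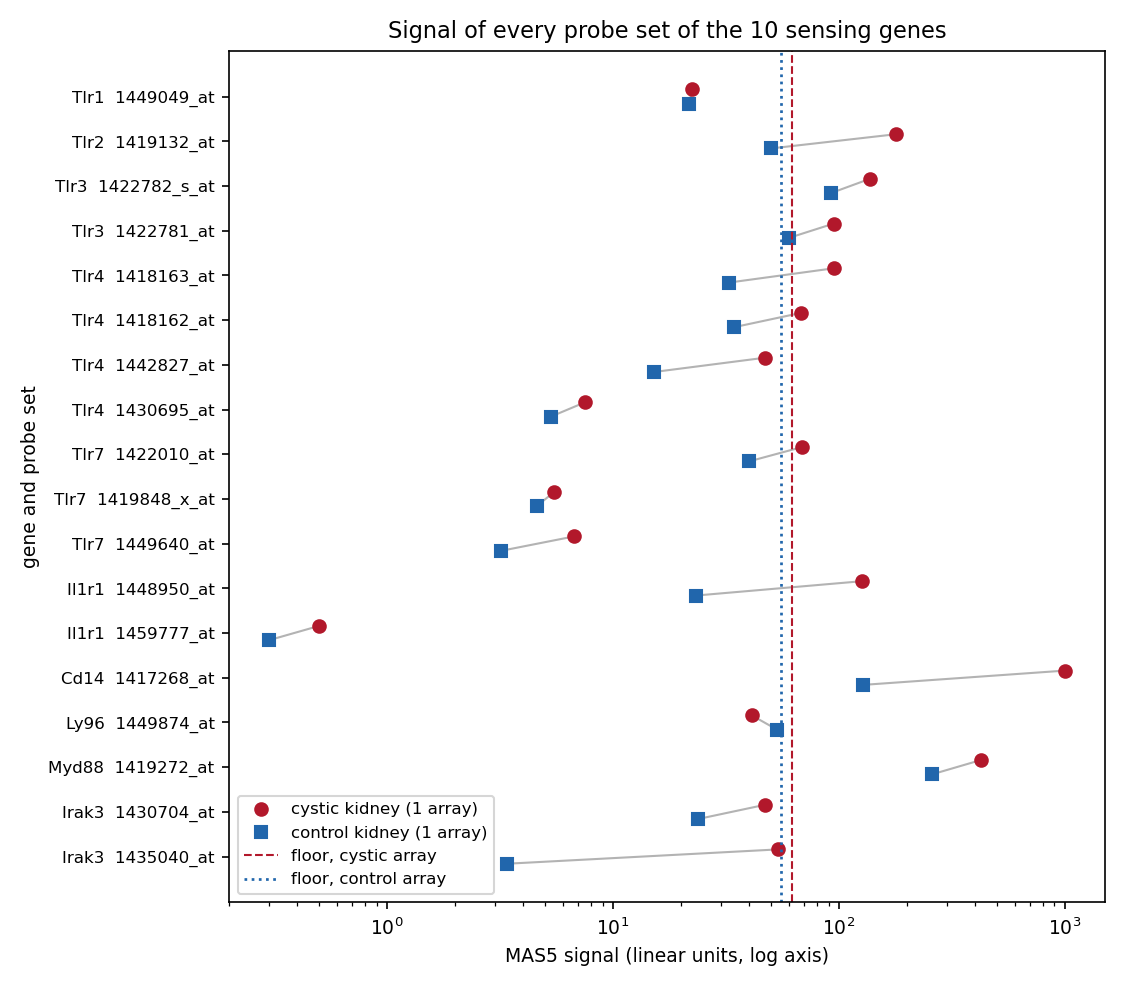
MAS5 signal (log axis) of each of the 18 probe sets of the 10 sensing genes, with the cystic array as circles drawn above the control array as squares, and 1 array per group. The vertical lines are the floors of 61.9 (cystic, dashed) and 55.4 (control, dotted). Only Cd14, Tlr3 and Myd88 have probe sets above the floors on both arrays, and Cd14 has the widest gap among them.

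Among the cell surface receptors, Tlr2 had a signal of 180 in the cystic kidney and 49.9 in the control kidney, at its only probe set, 1419132_at. The control signal lay just under the floor, so the difference is a bound of at least 3.24-fold (log2 1.70), and the signals as deposited had a ratio of 3.60. Tlr2 pairs with Tlr1 for triacylated lipopeptides and with Tlr6 for diacylated ones. Tlr1 read 22.4 in the cystic and 21.7 in the control kidney, and Tlr6 read 30.2 in the cystic and 12.3 in the control kidney. Both partners were under the floors, so the difference of Tlr2 has no measured counterpart in either.

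Tlr4, the receptor for lipopolysaccharide, was read by 4 probe sets. The brightest, 1418163_at, had a signal of 95 in the cystic and 32.6 in the control kidney, a bound of at least 1.71-fold, with a ratio of 2.91 as deposited. The second, 1418162_at, had 67.7 in the cystic and 34.2 in the control kidney, a bound of at least 1.22-fold, with a ratio of 1.98 as deposited. The remaining probe sets of Tlr4 were not measured, with 47.2 and 7.5 in the cystic and 15.2 and 5.3 in the control kidney. Whether Tlr4 passed 2-fold depended on the floor and on the probe set. It was not counted as higher here, and was 0.53 in log2 with the median over probe sets. At its brightest probe set it reached 1.40 when each floor was lowered to the 40th percentile, 1.54 with no floor and 1.06 without probe sets marked as shared.

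Il1r1 binds interleukin-1 alpha and beta and carries the same kind of cytoplasmic domain as the Toll-like receptors. Its probe set 1448950_at had a signal of 127 in the cystic kidney and 23.4 in the control kidney. With the control raised to the floor it was at least 2.29-fold higher (log2 1.19), and the deposited signals had a ratio of 5.41. The other Il1r1 probe set read 0.5 in the cystic and 0.3 in the control kidney, far under both floors. With the floor at the 60th percentile the bound for Il1r1 was 0.52 in log2, under 2-fold.

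Tlr3 and Tlr7 signal from endosomes. Tlr3, the receptor for double-stranded RNA, was above the floor on both arrays at both of its probe sets. The brighter, 1422782_s_at, had 137 in the cystic and 92.0 in the control kidney, a log2 ratio of 0.57. The other, 1422781_at, had 94.9 in the cystic and 60.1 in the control kidney, a log2 ratio of 0.66. The probe sets of Tlr3 thus differed by less than the pooled SD of 0.32 between probe sets, and both were under 2-fold. Tlr7, a receptor for single-stranded RNA that is encoded on the X chromosome, had 68.6 in the cystic and 40 in the control kidney at 1422010_at, a bound of at least 1.24-fold, with a ratio of 1.72 as deposited. Its other probe sets read 5.5 and 6.7 in the cystic and 4.6 and 3.2 in the control kidney, under the floors.

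Of the coreceptors, only Cd14 was measured. Cd14 delivers lipopolysaccharide to the complex of Tlr4 and MD-2 and also serves Tlr2 and endosomal receptors. Its single probe set, 1417268_at, had a signal of 1001 in the cystic kidney and 128 in the control kidney, which is 7.85-fold higher (log2 2.97) with both signals above the floor. This was the 17th highest ratio among the 10668 genes that passed both floors, and it was between 2.81 and 2.97 under the 7 other settings tried. Ly96 encodes MD-2, the protein that holds lipopolysaccharide on Tlr4. It had 41.1 in the cystic and 53.2 in the control kidney, under both floors and the only one of the 18 probe sets with the lower signal on the cystic array. No direction is read from values under the floor. The signals of the other 17 stood higher on the cystic array, whose median signal was itself higher, and 8 of those 17 were under both floors.

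Myd88, the adaptor used by all the receptors named above except Tlr3, had 426 in the cystic and 259 in the control kidney at its single probe set, 1419272_at. Both signals were above the floor, and the log2 ratio of 0.72 was under 2-fold, with a range of 0.56 to 0.72 over the settings. Irak3, also called IRAK-M, restrains signalling downstream of MyD88 and is known mainly from macrophages. Its probe sets had 47.3 and 53.6 in the cystic and 23.8 and 3.4 in the control kidney, all under the floors.

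**Figure D2:**
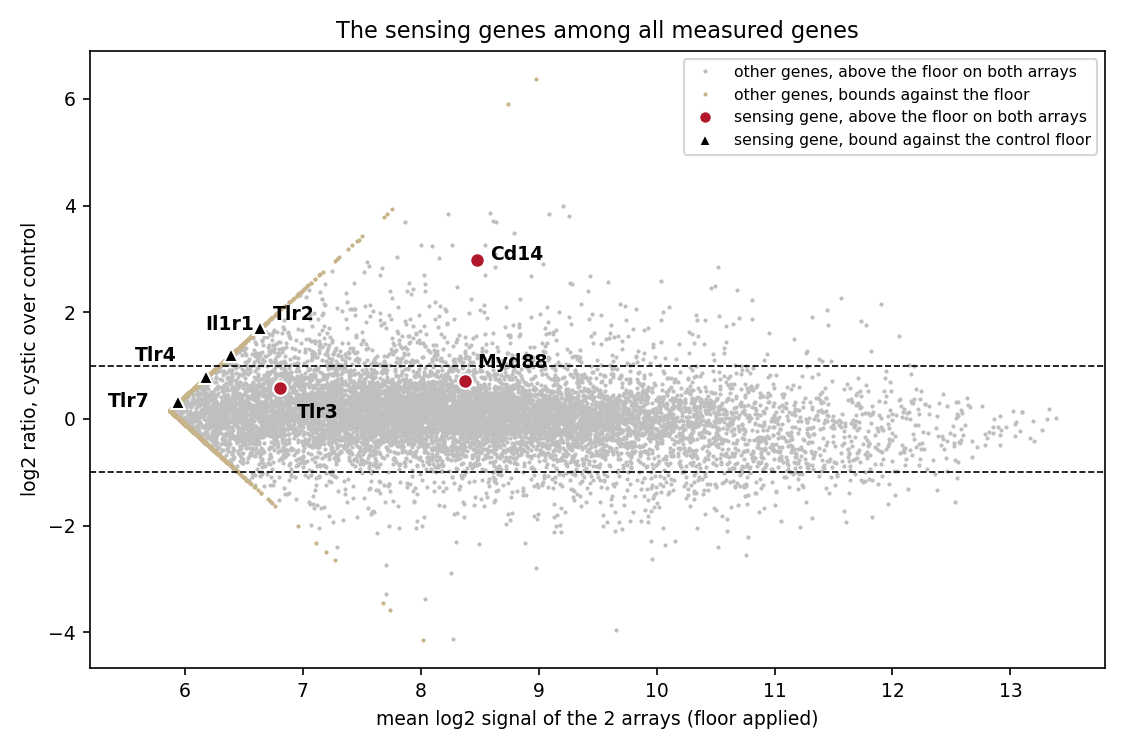
Log2 ratio of cystic over control against the mean log2 signal of the 2 arrays, for 12015 measured genes, each a point, with the 7 measured sensing genes labelled. Dashed lines mark 2-fold. Cd14 lies at 2.97 among the highest genes, Tlr3 and Myd88 lie within the band under 2-fold, and Tlr2, Il1r1, Tlr4 and Tlr7 lie on the edge formed by bounds against the control floor.

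Of the 10 genes, 3 were counted as higher, beside 4.66% of all 18193 named genes, measured or not. Among the 7 that were measured, 3 were higher and 0 lower, beside 7.06% higher and 3.78% lower of 12015 measured genes. The state of the control signal matters for this reading. Of the 3 members that passed both floors, 1 (Cd14) was higher, beside 6.15% of 10668 such genes. Of the 4 members that passed the floor on the cystic array alone, 2 (Tlr2 and Il1r1) were higher, beside 28.6% of 671 such genes. A gene of that second kind could only come out higher, so its count does not stand for the group. The median log2 ratio of the 7 measured members was 0.78, itself a bound, and that of all measured genes was 0.09. With each array centred on its median, the median of all genes was -0.07 and the share of higher genes among all past 2-fold was 47.5%, against 65.1% as deposited. The same 3 members, Cd14, Tlr2 and Il1r1, were past 2-fold under that centring and under quantile normalization.

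**Figure D3:**
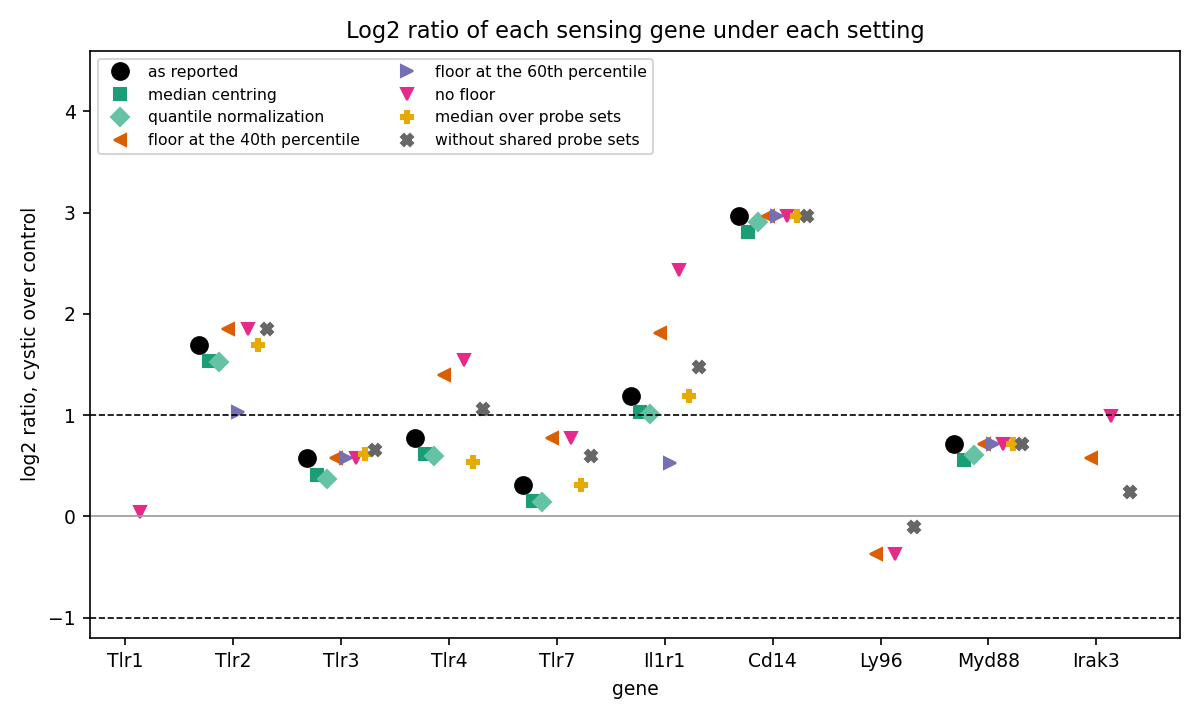
Log2 ratio of cystic over control for each sensing gene under the reported setting (black circles) and 7 others, with no point where a gene was not measured. Cd14 and Tlr2 are above the 2-fold line (dashed) in every setting shown, Il1r1 drops to 0.52 with the floor at the 60th percentile, and Tlr4 lies on both sides of the line.

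The promoters of the genes that were higher are shown beside those of genes that were above both floors and under 2-fold, because Tlr2 is a known target of NF-kB, the factor that these receptors activate. The RefSeq table of GRCm38.p6 held promoters of 6 of the 10 genes, 250 bases before to 50 bases after a transcript start, which is position 0 in what follows. Tlr4, Tlr7, Cd14 and Ly96 were not among them. Capitals mark matches, on either strand, to the kappaB consensus bound by NF-kB or to a core of the interferon-stimulated response element, GAAANNGAA.
Tlr2, chr3:83841559-83841858, minus strand: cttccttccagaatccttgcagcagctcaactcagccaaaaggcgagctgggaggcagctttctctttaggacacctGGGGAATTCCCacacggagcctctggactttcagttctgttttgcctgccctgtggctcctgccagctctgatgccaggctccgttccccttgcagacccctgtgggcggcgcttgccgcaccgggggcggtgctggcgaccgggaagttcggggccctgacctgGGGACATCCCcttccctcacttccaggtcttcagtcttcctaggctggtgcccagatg
Il1r1, chr1:40266336-40266635, plus strand: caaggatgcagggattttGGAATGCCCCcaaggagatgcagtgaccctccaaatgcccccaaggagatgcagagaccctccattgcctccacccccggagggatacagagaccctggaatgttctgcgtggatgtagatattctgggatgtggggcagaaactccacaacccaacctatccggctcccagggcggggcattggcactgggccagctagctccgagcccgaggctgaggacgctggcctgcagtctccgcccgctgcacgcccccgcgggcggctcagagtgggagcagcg
Tlr3, chr8:45410331-45410630, minus strand: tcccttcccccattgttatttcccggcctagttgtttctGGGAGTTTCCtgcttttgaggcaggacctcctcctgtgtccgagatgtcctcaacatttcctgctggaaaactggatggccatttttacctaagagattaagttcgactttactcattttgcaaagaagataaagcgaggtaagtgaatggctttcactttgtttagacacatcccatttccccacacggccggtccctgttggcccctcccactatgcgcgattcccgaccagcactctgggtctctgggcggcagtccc
Myd88, chr9:119339969-119340268, minus strand: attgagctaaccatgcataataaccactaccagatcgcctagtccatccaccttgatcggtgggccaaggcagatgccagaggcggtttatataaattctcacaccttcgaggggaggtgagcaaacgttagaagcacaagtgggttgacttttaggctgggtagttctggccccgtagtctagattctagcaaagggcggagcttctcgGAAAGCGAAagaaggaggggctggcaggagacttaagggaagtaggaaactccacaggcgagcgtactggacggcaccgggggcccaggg

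The Tlr2 promoter held a pair of overlapping kappaB matches that begin at positions -173 and -172, and another that begins at -8. The Il1r1 start shown held 1 kappaB match at -232, and another Il1r1 start in the table, at chr1:40224830-40225129, held no match to any motif searched. Tlr3, which was under 2-fold, held 1 kappaB match at -211, and Myd88 held 1 match of the interferon response core at -40, as did a promoter of Irak3, not shown, at -102. Of all 32851 promoters of this length, 8.46% held the kappaB consensus and 8.56% the interferon response core. Matches to an AP-1 site (TGANTCA, in 7.81% of all promoters) and to the core bound by the myeloid factor PU.1 (GAGGAA, in 28.3%) were also sought on both strands. AP-1 had no match in the 9 member promoters, and PU.1 had 1 match each in promoters of Tlr1 (at -23) and Irak3 (at 33). These are letters in a window, and no binding was measured. The kappaB consensus was thus present in promoters of genes on either side of the 2-fold limit.

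Of the other receptors and their partners, 4 of 8 genes with a probe set were measured, each only on the cystic array, and 2 were higher. The share of higher genes was 28.6% over all 671 genes that passed the floor on the cystic array alone. Ly86 encodes MD-1, the partner of the receptor homologue Cd180, and had 240 in the cystic and 46.1 in the control kidney, at least 4.34-fold higher. Tlr13, a mouse receptor for bacterial ribosomal RNA, had 120 in the cystic and 41.9 in the control kidney, at least 2.16-fold higher. Its bound was under 2-fold with median centring or quantile normalization, where the count was 1. The count was also 1 with the floor at the 60th percentile, 3 with it at the 40th and 5 with no floor. Tlr8 had the lowest bound, 0.30, with 68.2 in the cystic and 6.7 in the control kidney, and Tlr6, Tlr9, Tlr12 and Cd180 were not measured.

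Genes that deliver ligands to the receptors, or fold and move them, were higher in 3 and lower in 1 of 13 measured. The shares over all measured genes were 7.06% higher and 3.78% lower. Ctss, cathepsin S, a protease of endosomes and lysosomes in antigen-presenting cells, had 1242 in the cystic and 194 in the control kidney, 6.41-fold higher. Lbp, which hands lipopolysaccharide to CD14, had 570 in the cystic and 105 in the control kidney, 5.44-fold higher. Unc93b1, which carries nucleic acid receptors to endosomes, was 2.13-fold higher and fell under 2-fold with either other scaling. Cd36, a fatty acid transporter that also serves as a coreceptor of Tlr2, had 200 in the cystic and 611 in the control kidney, which is -1.61 in log2 (second probe set -0.94). Cd36 was no longer past 2-fold with the median over probe sets or without probe sets marked as shared, which left 0 lower genes in this list.

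Of 3 measured adaptors beside Myd88, Pik3ap1, which links Toll-like receptors to phosphoinositide 3-kinase, was at least 2.81-fold higher. Pik3ap1 had 156 in the cystic and 53.8 in the control kidney, and its other probe set read 5.1 and 3.1. This count of 1 was 0 with the floor at the 60th percentile. Ticam1, the adaptor of Tlr3, had the lowest log2 ratio, 0.04. None of the 14 measured kinases and ubiquitin ligases was past 2-fold in either direction. They ran from -0.47 for Ikbkg, a subunit of the IkB kinase with 0.23 at its second probe set, to 0.65, with a median of -0.15. With no floor, 2 of these kinases and ligases were counted as higher. Of 8 measured NF-kB and IRF factors, Nfkb2 was at least 3.16-fold higher (second probe set 0.54 in log2) and Relb, its dimer partner, 2.14-fold higher. This count of 2 was 3 with the median over probe sets, 0 with the floor at the 60th percentile and 1 under each of the other 5 alternatives. Irf3, which acts after Tlr3, had the lowest log2 ratio of that list, 0.03. Beside the counts of these lists, 7.06% of all measured genes were higher and 3.78% lower.

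Genes listed here as inhibitors of the pathway, several of which NF-kB itself induces, were higher in 5 of 15 measured genes and lower in 0. The shares over all measured genes were 7.06% higher and 3.78% lower. Bcl3 and Nfkbiz encode nuclear members of the IkB family. Whether the genes of this list restrained or promoted signalling was not measured. Bcl3 had 293 in the cystic and 36.6 in the control kidney, at least 5.28-fold higher, and Nfkbiz had 543 in the cystic and 108 in the control kidney, 5.04-fold higher (second probe set 3.16 in log2). Atf3, a stress-induced repressor, was 2.76-fold higher, Tnfaip3, the ubiquitin-editing enzyme A20, 2.70-fold, and Nfkbie at least 2.09-fold (second 0.98). Sigirr, an inhibitory member of the interleukin-1 receptor family, had 481 in the cystic and 806 in the control kidney, a log2 ratio of -0.75 that was under 2-fold. The count of 5 in this list was 4 with median centring, quantile normalization, the floor at the 60th percentile or without shared probe sets.

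In the interleukin-1 family, 3 of 8 measured genes were higher and 0 lower, beside 7.06% and 3.78% of all measured genes. Above both floors 1 of 6 was higher, beside 6.15% of all such genes. Above the floor on the cystic array alone 2 of 2 were higher, beside 28.6% of all such genes. Il18r1, a receptor subunit for interleukin-18, was at least 3.44-fold higher, Il33, an alarmin, 2.66-fold, and Il1rl2, the receptor for interleukin-36, at least 2.27-fold. Il18bp, which neutralises interleukin-18, had a log2 ratio of -0.83. Il1a, a ligand of Il1r1, was not measured, with 15.0 in the cystic and 4.8 in the control kidney, and the other ligand, Il1b, had 86.2 in the cystic and 59.5 in the control kidney, a log2 ratio of 0.53. The count of 3 was 6 with no floor and 2 with quantile normalization, with the floor at the 60th percentile or without shared probe sets, and 1 gene was lower with quantile normalization. Il1a and Il1b were chosen after their values were seen.

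Genes known to be induced through these receptors were higher in 5 of 10 measured and lower in 0, while 14 more were under the floor on both arrays. The shares over all measured genes were 7.06% higher and 3.78% lower. Of the 10, 5 passed the floor on the cystic array alone, so they could not be counted as lower. Of those 5, 1 was higher, beside 28.6% of all such genes. Of the 5 above both floors, 4 were higher, beside 6.15% of all such genes. Lcn2, an iron-carrier binding protein, had 4610 in the cystic and 34.7 in the control kidney, at least 83.2-fold higher. The adhesion molecules Icam1 and Vcam1 were 6.49-fold and 5.28-fold higher, the chemokine Cxcl1 2.68-fold (second 2.22 in log2), and Slfn2 2.07-fold. Ccl4, named after its values were seen, had the lowest log2 ratio above both floors, 0.29, and Cxcl10 had the lowest bound, 0.26, with 66.2 in the cystic and 6.3 in the control kidney. The cytokine genes Tnf and Il6, chosen after their values were seen, read 25.1 and 40.6 in the cystic and 45.8 and 1.4 in the control kidney, all under the floors. The count of 5 was 8 with the floor at the 40th percentile and 14 with no floor, where 1 gene was lower. It was 4 with median centring, quantile normalization or the floor at the 60th percentile.

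Proteins reported to act as endogenous ligands of Tlr2 or Tlr4 were higher in 8 of 13 measured genes and lower in 0. The fibrinogen chains Fgg, Fga and Fgb were 14.3-fold, 6.03-fold and at least 5.70-fold higher. The matrix glycoproteins Tnc (tenascin-C) and Fn1 (fibronectin) were at least 9.56-fold and 4.66-fold higher. Hspd1, a mitochondrial chaperone, had the lowest log2 ratio, -0.69. These genes have other known roles in matrix and clotting, and signalling was not measured. Over the 9 pathway lists, which share some genes, 29 of 87 measured genes were higher and 1 lower, beside the 7.06% and 3.78% of all measured genes, and their median log2 ratio was 0.45. The lists were chosen with earlier results of these data known, so this count is a description. Genes of any list that passed the floor on the cystic array alone could not be counted as lower.

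**Figure D4:**
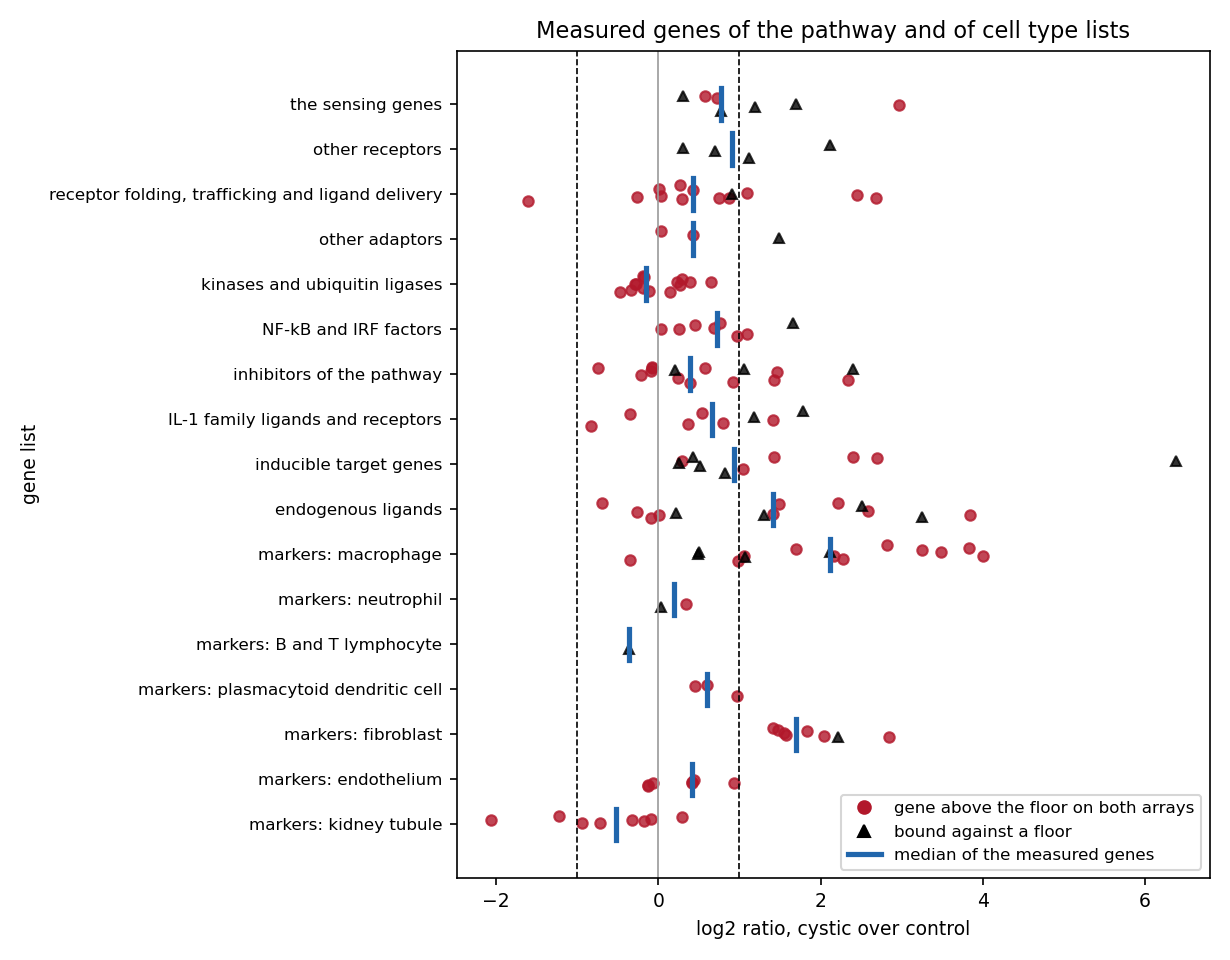
Log2 ratios of cystic over control for the measured genes of the sensing group, the 9 pathway lists and 7 cell type lists, each gene as a point (circles above the floor on both arrays, triangles bounds) with a bar at the median. Dashed lines mark 2-fold. The kinases and ubiquitin ligases lie between -0.47 and 0.65, while macrophage and fibroblast markers have medians of 2.12 and 1.70.

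Among the cell type lists, only those of macrophages and fibroblasts held genes counted as higher in the reported setting. With the median over probe sets, 1 plasmacytoid dendritic cell marker was also higher. With no floor, 1 neutrophil and 1 lymphocyte marker were higher and 2 lymphocyte markers lower. Of 15 measured macrophage markers, 11 were higher and 0 lower, beside 7.06% and 3.78% of all measured genes. They had a median log2 ratio of 2.12, and the list had a summed signal of 11060 in the cystic and 2750 in the control kidney. The count of 11 was 9 with median centring, 8 without shared probe sets and 13 with no floor. The brightest on the cystic array were Csf1r, the receptor for macrophage growth factor, with a log2 ratio of 0.98 (second 1.14), Lyz2, a lysozyme, with 4.00, and C1qa, of the first complement component, with 3.48. Mertk, named after its values were seen, had 372 in the cystic and 475 in the control kidney, a log2 ratio of -0.35. Lyz2 may share probes with its near-identical copy Lyz1. No macrophage marker was at 0, and Cd163 was the only one of the 16 not measured. All 8 fibroblast markers were higher, with a median of 1.70 and a summed signal of 20489 in the cystic and 5290 in the control kidney, led in brightness on the cystic array by Col3a1 (1.83, second 2.32), Col1a2 (2.04) and Col1a1 (2.85, second 1.57). In whole kidney RNA, fewer or more cells of a type and less or more RNA per cell cannot be told apart, and the part that either cell type has in the values of the sensing genes was not tested.

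Neutrophil markers were near or under the floor. Of 9 with a probe set, 2 were measured, Csf3r with a log2 ratio of 0.34 and Ngp, which had 48.4 in the cystic and 60.6 in the control kidney, and the summed signal was 284 in the cystic and 243 in the control kidney. Of 8 lymphocyte markers only Cd8a was measured, with a bound of -0.36, and the list summed to 174 in the cystic and 245 in the control kidney. The neutrophil and lymphocyte sums come mostly from genes under both floors, so no direction is read from them. Plasmacytoid dendritic cells are a known site of Tlr7 expression. Siglech and Ccr9 from their list were not measured, and the list summed to 832 in the cystic and 585 in the control kidney. Irf8, Bst2 and Tcf4 had log2 ratios of 0.97 (second 1.17), 0.59 and 0.45 (second 0.41). With the median over probe sets, 1 gene of this list was counted as higher. Of 7 measured endothelial markers none was past 2-fold, with 0.94 for Eng (second 0.52), -0.07 for Emcn and 0.43 for Pecam1, and sums of 3292 in the cystic and 2671 in the control kidney. The 8 kidney tubule markers included 2 lower and 0 higher genes, beside 3.78% and 7.06% of all measured genes. They had a median of -0.52 and sums of 24328 in the cystic and 34985 in the control kidney. No marker in these lists was at 0 on either array.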

How the data were processed

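Kidney RNA of 1 cystic and 1 control sample was measured on Affymetrix arrays. Per the labels, the deposited values are MAS5 intensities, 1 linear signal per probe set, with the version, scaling target and detection calls not given in the sources used here. Of 45101 probe sets, 64 controls were left out, and 34945 named 1 gene, 932 several and 9160 none through the platform annotation, with symbols updated by gene identifier from RefSeq (GRCm38.p6). The deposited scaling was kept. Each floor was the array's 50th percentile. Of several probe sets, a gene took the one brightest on average, in log2 after the floor. Groups came from sample titles. With 1 array per group nothing was tested, and a 2-fold limit was used.

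The members, pathway and marker lists were chosen with earlier results of these data known. From each pathway list, the text names up to 5 genes past 2-fold with the largest ratios and the lowest measured gene. From each marker list it names the 3 brightest on the cystic array, which favours markers that were higher there, or all measured if fewer than 4. Other named genes are said to be chosen after their values were seen, or complete a count. Genes nearest to a member in signal were planned but are not given, since that distance compares levels of different probe sets. Steps were run in Python 3.11.15 with pandas 2.3.3 and checked on simulated data. Alternatives were median centring, quantile normalization, floors at the 40th and 60th percentile, no floor, the median over probe sets, and no probe sets marked as shared. The mark was a name ending in _s_at, _x_at or _a_at, and whether such probe sets bind other genes was not examined.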

Additional observations from a re-analysis of the deposited data

How the results depend on the processing

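Cd14 and Tlr2 were past 2-fold under all 7 alternatives, with log2 ratios of 2.81 to 2.97 and 1.03 to 1.85. Il1r1 passed under 6 of the 7, with 0.52 as the exception at the 60th percentile floor, and Tlr4 under 3, as given above. The number of members counted as higher was 2 with the floor at the 60th percentile, 4 with the floor at the 40th percentile, with no floor or without probe sets marked as shared, and 3 otherwise. No member was counted as lower under any of them. The members' median log2 ratio was between 0.61 and 0.88. With no floor, 2098 genes were at least 2-fold higher and 1667 at least 2-fold lower over all named genes, against 848 and 454 as reported, because genes near background then enter the count. Leaving out shared probe sets also lowered the floors, which moved the bounds. The floor limits what can be said of Tlr1, Ly96 and Irak3, and of the size of the differences of Tlr2, Tlr4, Tlr7 and Il1r1. No paired analysis was possible because each group had 1 array and the labels give no replicate numbers. No replicate could be left out.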
